A study of Mus musculus with 2 samples.

Results

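A set of 9 genes of epithelial cell adhesion was followed in 46C mouse embryonic stem cells that overexpressed ID2. They are Cdh1, Epcam, Cldn4, Cldn6, Cldn7, Ocln, Jam2, Tjp1 and Esrp1, taken by symbol as 9 of the 14398 genes in the deposited expression table. The choice was made with earlier results of the same 2 libraries known, so the differences below describe those libraries and support no claim of their own. RNA sequencing had been run on 1 library from 46C cells transfected with a PB vector carrying ID2, here the ID2 library, and on 1 library from 46C cells transfected with the PB vector alone, the control library. Both cultures were at passages 21 to 24 and grew on gelatin in medium with serum and LIF, the cytokine that sustains self-renewal. 46C is a mouse embryonic stem cell line whose Sox1 locus carries a GFP reporter. ID2 pairs with E proteins, a class of helix-loop-helix transcription factors, and since ID2 has no part that contacts DNA, neither does the pair bind it. Whether the transfected cells were a pool or a single clone is not given in the sources used here.

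Epithelial cells are held together by adherens junctions, in which cadherins bind the same molecule on the next cell, and by tight junctions, in which claudins and occludin form a seal anchored to cytoplasmic scaffolds. Mouse embryonic stem cells grow as compact colonies and use E-cadherin, the product of Cdh1, to stay together. Repressors of the SNAIL and ZEB families and some E proteins bind E-boxes in epithelial gene promoters, and loss of E-cadherin with gain of those repressors is the textbook picture of an epithelial-to-mesenchymal transition.

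Values are the authors' normalized values, ratios are ID2 over control on the scale of log2(value + 1), and a gene called higher or lower is so in the ID2 library. With 1 library a group there is no spread between replicates, no error and no test, and the depth is unknown. Id2 stood at 26225 in the ID2 library and at 324 in the control library, the direction that the labels give. All 10 embryonic stem cell markers were listed, with summed values of 150702 in the ID2 library and 132687 in the control library. Bulk values cannot separate fewer cells with a transcript from less of it per cell.

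Of the 9 genes, 8 were lower and Jam2 was higher. By size, 2 of the 9, Esrp1 and Cldn7, were at least 2-fold lower, beside 1.86% of the 12679 genes with a mean value of at least 50 over the libraries (the floor used here), and 1 of the 9, Jam2, was at least 2-fold higher, beside 2.53% of those genes. At 1.5-fold, 6 of the 9 were lower, beside 6.59% of all genes, and 1 was higher, beside 8.00%. Counts of lower, higher and equal genes, here and for the lists below, compare whole steps, the units of which each deposited value is a multiple. A step is slightly larger in the ID2 library, so a gene with equal steps has a log2 ratio of 0.01, and a gene so near 0 can count as lower. By any number of steps, 8 of the 9 were lower, beside 51.5% of all genes, and 1 was higher, beside 47.2%. The median log2 ratio of the 9 genes was −0.65, against 0.00 over all genes above the floor. Because the genes were picked from this same contrast, nothing is read from these counts. All 9 passed the floor, and none sat at the highest value of the table, which 10 genes share in each library.

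**Figure D1:**
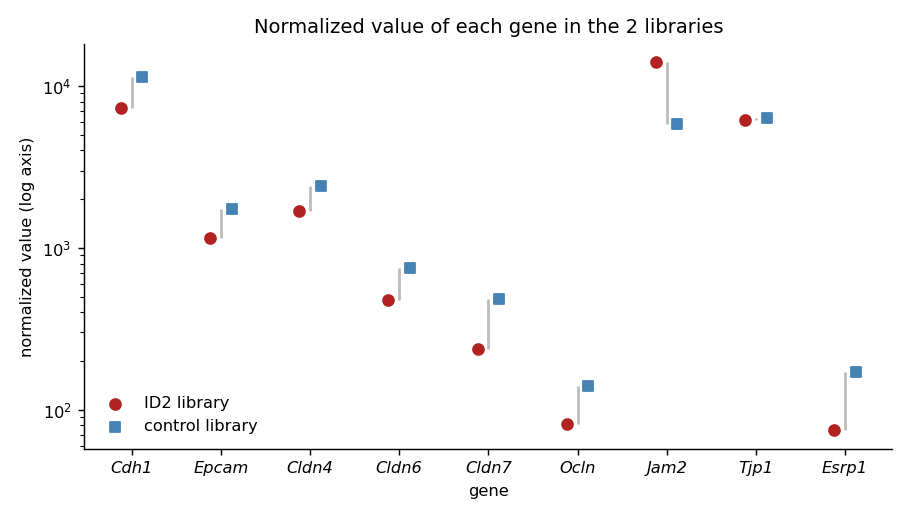
Normalized value of each of the 9 genes on a log axis, with the ID2 library as circles at the left of each pair and the control library as squares at the right; grey lines join the 2 values, and there are no error bars because each group is 1 library. Jam2 is the gene with its ID2 value above its control value, Tjp1 has nearly equal values, and the other 7 genes have the ID2 value below the control value.

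Cdh1 encodes E-cadherin, the calcium-dependent adhesion molecule of the adherens junction. Cdh1 stood at 7310 in the ID2 library and at 11448 in the control library, 1.57-fold lower (log2 ratio −0.65). The ID2 value minus the control value was −4138 normalized units, the largest gap among the 8 lower genes. Genes of like level spread little: of the 501 genes nearest to Cdh1 in mean value, log2 ratios ran from −0.41 at the 5th to 0.48 at the 95th percentile. Cdh1 lay below that range. The authors' deposited table gives Cdh1 an unadjusted p of 0.0145 and an adjusted p of 0.861. The p-values quoted from that table compare 1 library with 1 library, and may rest on values already set to a common distribution in place of read counts.

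Epcam encodes a surface glycoprotein of epithelial and pluripotent cells that associates with claudin-7. Epcam stood at 1144 in the ID2 library and at 1730 in the control library, 1.51-fold lower (log2 ratio −0.60). That ratio also lay below the range of genes of like level, which ran from −0.49 to 0.48. In the authors' deposited table Epcam has an unadjusted p of 0.0669.

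The claudins are multi-pass membrane proteins that set the tightness and ion selectivity of the seal. Cldn4 stood at 1694 in the ID2 library and at 2426 in the control library (log2 ratio −0.52), Cldn6, an early marker of embryonic epithelium, at 477 in ID2 cells against 751 in control cells (−0.65), and Cldn7 at 237 in ID2 cells against 482 in control cells (−1.02). All 3 claudins were thus lower, by 1.43-fold, 1.57-fold and 2.03-fold in that order, and each lay below the 5th percentile of genes of like level (−0.44, −0.59 and −0.70). Their summed value was 2409 in the ID2 library and 3659 in the control library. Scaled by exon length, Cldn4 made up 68.1% of the 3 in the ID2 library and 63.7% in the control library, while Cldn7 made up 11.7% in the ID2 library and 15.5% in the control library. Cldn4 was the leading claudin of the 3 in both. The authors' deposited table gives unadjusted p-values of 0.0894 for Cldn4, 0.106 for Cldn6 and 0.0366 for Cldn7, with adjusted values of 1.

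**Figure D2:**
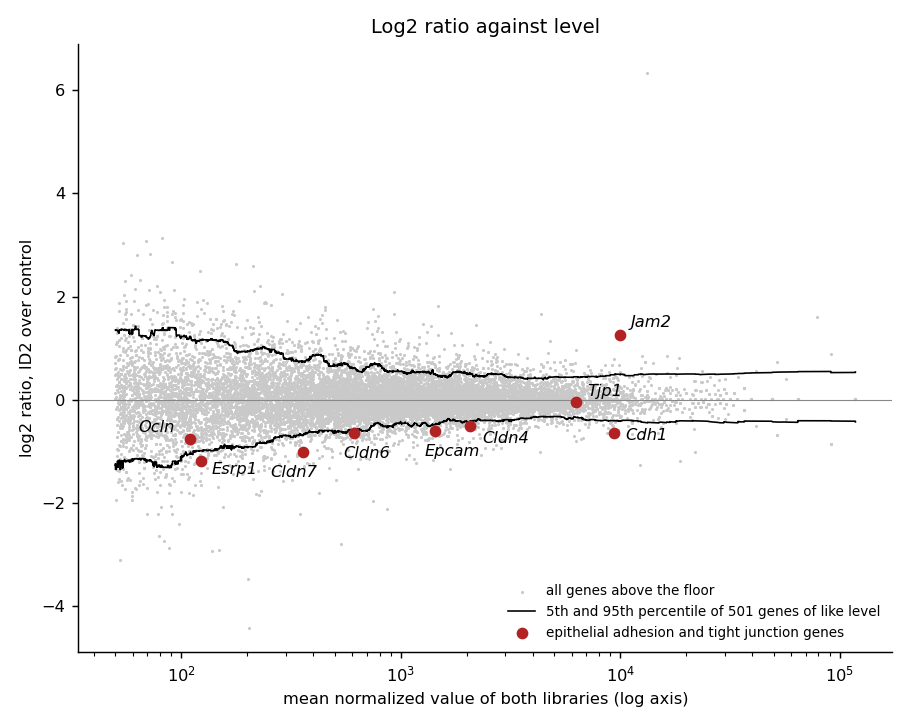
Log2 ratio of ID2 over control against the mean normalized value of both libraries (log axis) for the 12679 genes above the floor (grey) and the 9 genes (red, named); black lines follow the 5th and 95th percentile of 501 genes of like level. Jam2 lies above the upper line, Ocln and Tjp1 lie between the lines, and the other 6 genes lie below the lower line. All 9 genes were picked from this same contrast.

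Other membrane proteins of the tight junction went both ways. Ocln encodes occludin, a multi-pass protein of the tight junction strand, and stood at 81.4 in the ID2 library and at 139 in the control library, 1.70-fold lower (log2 ratio −0.77). At this low level ratios spread widely, from −1.06 to 1.19 between the 5th and 95th percentiles, and Ocln lay inside that range. Jam2, or JAM-B, is an immunoglobulin-type junctional adhesion molecule known from endothelium and testis and carried by mouse embryonic stem cells. It stood at 14012 in the ID2 library and at 5856 in the control library, 2.39-fold higher (log2 ratio 1.26). Among genes of like level the log2 ratio ran from −0.42 to 0.49, and Jam2 ranked 175th from the highest of the 12679 genes. Of the 9 genes, Jam2 alone has an adjusted p under 0.05 in the authors' deposited table (0.00293), beside 26 of 14398 genes (0.181%) there.

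Tjp1 encodes ZO-1, the scaffold that ties claudins, occludin and JAM proteins to actin. Tjp1 stood at 6212 in the ID2 library and at 6381 in the control library, 1.03-fold lower (log2 ratio −0.04), which was inside the range of genes of like level (−0.35 to 0.44). The scaffold transcript was thus within a few percent between the libraries. Transcripts of the claudins, Ocln and Jam2 were further apart, but these genes were picked from this same contrast. Esrp1 encodes an RNA-binding protein that drives the epithelial pattern of exon use in transcripts such as Fgfr2. Esrp1 stood at 74.4 in the ID2 library and at 171 in the control library, 2.28-fold lower (log2 ratio −1.19), with genes of like level between −1.0 and 1.15. The authors' deposited table gives unadjusted p-values of 0.338 for Ocln, 0.886 for Tjp1 and 0.12 for Esrp1. Exon use itself cannot be read from a table with 1 value per gene.

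Levels of different genes were set side by side per kb of exon, using merged exons of the GENCODE M21 basic set. In the ID2 library the order was Jam2 (2319 per kb), Cdh1 (1650), Cldn4 (933), Tjp1 (874), Epcam (554), Cldn6 (277), Cldn7 (161), Ocln (19.3) and Esrp1 (18.7). In the control library Cdh1 came first (2584 per kb), followed by Cldn4 (1336), Jam2 (969), Tjp1 (898), Epcam (838), Cldn6 (437), Cldn7 (326), Esrp1 (43.1) and Ocln (33). Per kb, the level of Jam2 was thus 1.41 times that of Cdh1 in the ID2 library and 0.375 times in the control library. With 1 library a group, it is unknown which neighbours in either order differ beyond the spread between cultures, and Ocln and Esrp1 stood in opposite order in the libraries.

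The library kit does not mark strand, so overlapping genes and near copies could share reads. No basic-set exon of the 9 overlaps an exon of another gene on either strand in the full GENCODE M21 annotation. Exons of the 9 outside the basic set were not checked. Of all stretches of 50 bases in their transcripts, those of 8 genes were found in no other gene's transcripts, and for Esrp1 1.23% were also found in the predicted gene Gm26663.

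Promoter windows from RefSeq (build GRCm38.p6, 250 bases before to 50 after an annotated start) were found for 6 of the 9 genes, in 8 windows. None was found for Cdh1, Esrp1 and Jam2, so the 1 higher gene, Jam2, could not be compared. Windows are shown for Epcam and the 3 claudins, which were lower together, and for Tjp1, which was nearly equal. Not printed are the first Cldn7 window, which holds no E-box, and the windows of Ocln, also lower. Because the genes were picked from this same contrast, nothing is read from letters in lower and nearly equal genes. Each window shown is written 5′ to 3′ on the strand of the gene, and capitals mark E-boxes, the letters CANNTG. The Epcam window is chr17:87635729-87636028, plus strand. The Cldn4 window is chr5:134946885-134947184, minus strand. The Cldn6 window is chr17:23679115-23679414, plus strand. The second of the Cldn7 windows is chr11:69965171-69965470, plus strand. The Tjp1 window is chr7:65371195-65371494, minus strand, and it holds no capitals.
Epcam promoter: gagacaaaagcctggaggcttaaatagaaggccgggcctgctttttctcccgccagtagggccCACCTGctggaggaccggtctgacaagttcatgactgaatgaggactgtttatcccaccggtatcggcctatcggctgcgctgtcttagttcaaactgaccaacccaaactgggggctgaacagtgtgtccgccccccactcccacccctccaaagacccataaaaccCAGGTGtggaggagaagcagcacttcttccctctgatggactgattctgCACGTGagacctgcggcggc
Cldn4 promoter: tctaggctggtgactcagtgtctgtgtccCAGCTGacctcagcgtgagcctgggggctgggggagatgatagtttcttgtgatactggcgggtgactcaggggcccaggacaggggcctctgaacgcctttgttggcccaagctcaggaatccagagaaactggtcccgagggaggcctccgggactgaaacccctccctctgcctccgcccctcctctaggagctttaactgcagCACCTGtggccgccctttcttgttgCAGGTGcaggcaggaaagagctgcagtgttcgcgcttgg
Cldn6 promoter: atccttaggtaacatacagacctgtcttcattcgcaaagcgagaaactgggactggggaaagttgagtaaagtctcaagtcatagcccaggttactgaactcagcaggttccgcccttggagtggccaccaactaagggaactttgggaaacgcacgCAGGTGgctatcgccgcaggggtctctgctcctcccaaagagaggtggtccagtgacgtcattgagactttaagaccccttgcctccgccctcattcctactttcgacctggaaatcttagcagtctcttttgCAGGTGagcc
Cldn7 promoter: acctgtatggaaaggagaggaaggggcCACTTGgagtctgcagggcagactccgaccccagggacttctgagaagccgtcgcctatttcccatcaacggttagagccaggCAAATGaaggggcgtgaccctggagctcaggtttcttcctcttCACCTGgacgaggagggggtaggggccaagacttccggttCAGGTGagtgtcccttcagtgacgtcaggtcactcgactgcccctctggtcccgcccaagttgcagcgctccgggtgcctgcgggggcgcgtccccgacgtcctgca
Tjp1 promoter: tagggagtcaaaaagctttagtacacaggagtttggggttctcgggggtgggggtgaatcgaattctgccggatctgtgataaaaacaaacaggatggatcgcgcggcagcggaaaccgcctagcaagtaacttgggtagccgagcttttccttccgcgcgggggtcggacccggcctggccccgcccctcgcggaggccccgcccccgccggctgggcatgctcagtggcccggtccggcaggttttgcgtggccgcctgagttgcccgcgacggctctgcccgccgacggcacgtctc

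The E2-box, an E-box spelled CACCTG, which reads CAGGTG from the other strand, and bound by SNAIL, ZEB and E proteins, occurred in 5 of these 6 genes. Epcam, Cldn4, Cldn6, Cldn7 and Ocln each held 2 distinct copies, and Tjp1 held neither this nor any other E-box. Every E2-box is also a CANNTG match. Over all 27025 genes with a window, 22.6% hold the E2-box and 75.0% some CANNTG. In Epcam the copies began at −187 and −19 from the start, in Cldn4 at −14 and 12, in Cldn6 at −93 and 41, and in the second Cldn7 window at −97 and −57, while the first Cldn7 window held none. The windows of Ocln overlap and share a copy. Which start these cells used is unknown, a match is not evidence of binding, and letters missing from a window say nothing of a factor.

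**Figure D3:**
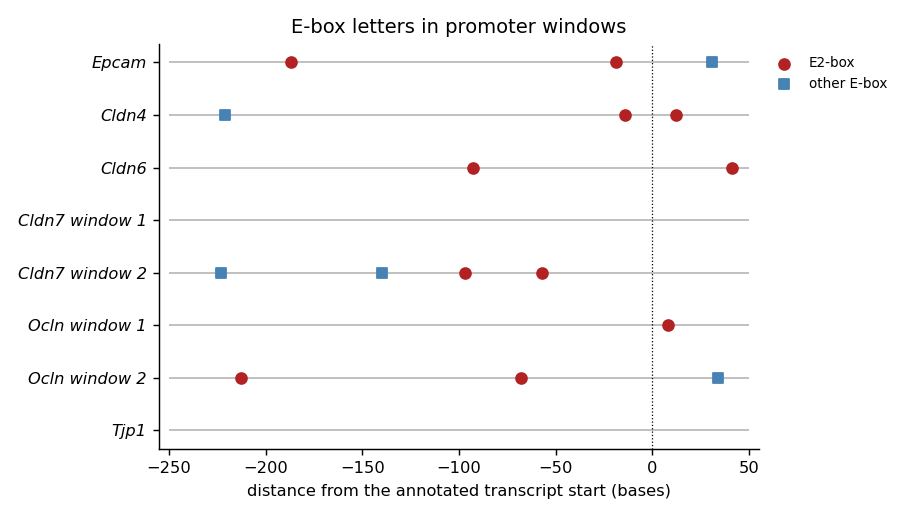
Position of E-box letters in each of the 8 promoter windows, in bases from the annotated transcript start (dotted line); circles are E2-boxes and squares are other E-boxes, at the first base of each. E2-boxes are drawn for Epcam, Cldn4, Cldn6, Ocln and the second Cldn7 window, and the lines for Tjp1 and the first Cldn7 window are empty.

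Of the other letters searched, also on both strands, the CCAAT box was found in 1 window, of Ocln, against 37.4% of all windows, and TATAAA in none, against 13.6%. The GC-box GGGCGG was found in 7 of the 8 windows, against 35.7%, and the windows held between 52% and 68% G and C, against a median of 52.7%. Across the 9397 genes above the floor that have a window, the 2048 with an E2-box had a median log2 ratio of −0.02, with 2.25% at least 2-fold lower, and the 7349 without it had 0.01 and 1.24%. Among genes of the junction lists below, which also hold regulators and keratins, 25 of 56 with a window held the E2-box. Of those 25, 72.0% were lower in whole steps (median log2 ratio −0.14), against 41.9% of the 31 without it (0.01). At least 2-fold lower were 4% of the 25 and 0% of the 31. Over all genes above the floor with a window, the shares that were lower were 54.8% with the E2-box and 49.5% without it. These shares are descriptions with no test.

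Other genes of cell junctions were described with 12 lists of 139 genes, called the junction lists, which also hold regulators, splicing factors and keratins. Of the 139, 92 were above the floor and outside the 9. Of the 92, 52 were lower, 35 higher and 5 equal in whole steps, with a median log2 ratio of −0.07, against 0.00 over all genes. At least 2-fold lower were 3 (3.26%, beside 1.86% of all genes) and at least 2-fold higher were 4 (4.35%, beside 2.53%). The 3 were Crb3, Snai3 and Krt19, and the 4 were Cldn19, Magi3, Cdh4 and Tfap2a. Snai3, Krt19 and Tfap2a are from the lists of repressors, keratins and epithelial regulators, in that order. Cldn19, Cdh4, Tfap2a, Snai3 and Krt19 stood at low values, where ratios spread widely. Around Ocln, at a mean of 110, log2 ratios ran from −1.06 at the 5th to 1.19 at the 95th percentile. The shares of all genes are not matched for level, so no excess is read from them. None of the 92 has an adjusted p under 0.05 in the authors' deposited table.

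Few of the remaining claudins could be compared, since 13 of 18 were not listed and 3 were above the floor. Under it were Cldn5 (14.1 in the ID2 library and 45.8 in the control library) and Cldn20 (42.2 in the ID2 library and 35.8 in the control library). Both are named after their values were seen. Cldn19 was higher at 107 in the ID2 library against 46.8 in the control library (log2 ratio 1.17), Cldn3 stood at 78.4 in ID2 cells against 95.5 in control cells (−0.28), and Cldn12 at 709 in ID2 cells against 667 in control cells (0.09). Of 9 further membrane proteins of the tight junction, 6 were lower and 3 higher (median −0.14). Crb3, an apical polarity protein, stood at 265 in the ID2 library and at 583 in the control library (−1.13). Marveld2, or tricellulin, which seals corners where cells meet, stood at 78.4 in ID2 cells against 139 in control cells (−0.82), and Ildr2 at 64.3 in ID2 cells against 85.6 in control cells (−0.41). The scaffold and polarity list was centred near 0, with 12 of 22 lower, 8 higher and 2 equal in steps (median −0.06). In it Magi3 was higher at 464 in the ID2 library against 219 in the control library (1.08), and Inadl, which encodes the scaffold PATJ, stood at 158 in ID2 cells against 237 in control cells (−0.58) and Cgn, or cingulin, at 1377 in ID2 cells against 1976 in control cells (−0.52).

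Partners of E-cadherin inside the cell had ratios closer to 0 than that of Cdh1, which was picked from this same contrast. Of 9 catenins and adherens junction linkers above the floor, 6 were lower, 2 higher and 1 equal in steps (median log2 ratio −0.12), none was 2-fold apart, and none of the 4 nectins was listed under its current or its older symbol. Those furthest from 0 were Jup, or plakoglobin, at 5093 in the ID2 library and 3756 in the control library (0.44), Camsap3 at 1272 in ID2 cells against 1626 in control cells (−0.35) and Lima1 at 2647 in ID2 cells against 3338 in control cells (−0.33). Ctnnb1, or beta-catenin, named after its values were seen, stood at 18459 in ID2 cells against 16147 in control cells (0.19). Among other cadherins, Cdh3, or P-cadherin, stood at 742 in the ID2 library and at 1279 in the control library (−0.79), and Cdh4, or R-cadherin, at 80.4 in ID2 cells against 23.9 in control cells (1.71). Cdh2, or N-cadherin, was under the floor, at 42.2 in the ID2 library and 41.8 in the control library.

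Desmosome genes were mixed, with 6 of 9 lower and 3 higher (median −0.22). Ppl, or periplakin, stood at 307 in the ID2 library and at 499 in the control library (−0.70), Pkp2 at 374 in ID2 cells against 589 in control cells (−0.65) and Dsg2, a desmosomal cadherin, at 2321 in ID2 cells against 1622 in control cells (0.52). Partners and proteases of EpCAM had a median close to 0 (−0.12), with 4 of 7 lower and 3 higher. In that list Prss8, or prostasin, stood at 124 in the ID2 library and at 79.6 in the control library (0.63), St14, or matriptase, which can cleave EpCAM, at 3910 in ID2 cells against 5036 in control cells (−0.36), and Adam17 at 1262 in ID2 cells against 1453 in control cells (−0.20). Of the gap junction genes 5 of 6 were higher (median 0.31, and 0.16 with no floor or a floor of 250), with Panx1 at 362 in the ID2 library and 243 in the control library (0.57) and Gja4 at 229 in ID2 cells against 166 in control cells (0.46).

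**Figure D4:**
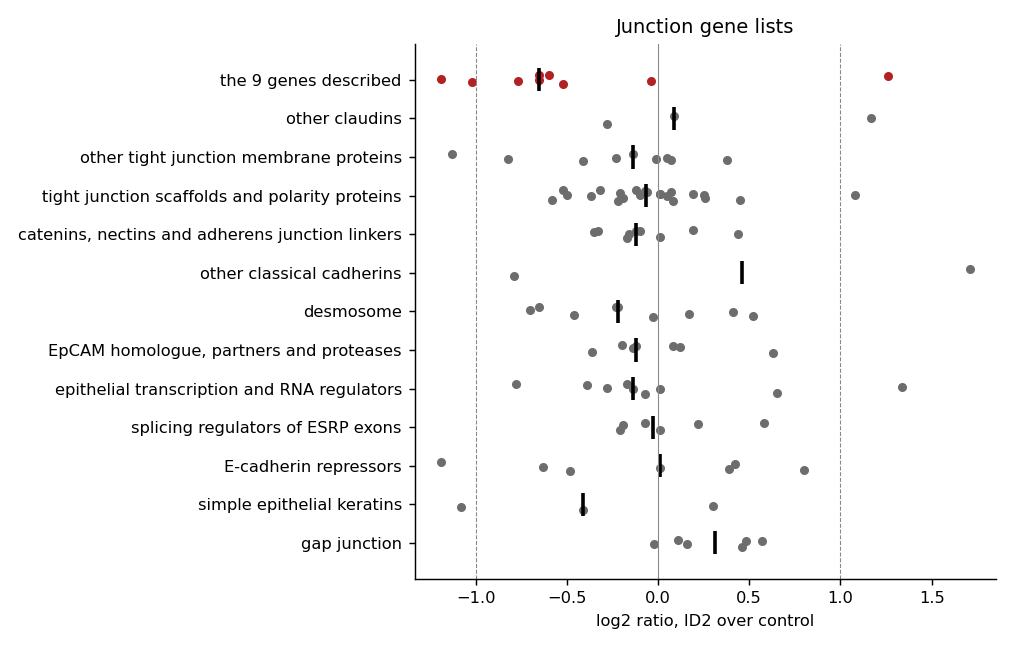
Log2 ratio of ID2 over control for the 9 genes (red, top row) and for members above the floor of the 12 junction lists (grey), where each point is a gene, black bars are list medians and dashed lines mark 2-fold. The 9 genes have a median of −0.65, and the list medians lie between −0.41 for simple epithelial keratins and 0.46 for other classical cadherins, a list of 2 genes. Since the 9 genes were picked from this same contrast, nothing is read from their median beside those of the lists.

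Regulators of epithelial genes went both ways. Esrp2, the paralog of Esrp1, was higher at 273 in the ID2 library against 174 in the control library (log2 ratio 0.65), so the pair had opposite signs. Of 9 epithelial transcription and RNA regulators 7 were lower and 2 higher in steps (median −0.14; Rbm47, at 643 in ID2 cells against 639 in control cells, counts as lower in steps), with Tfap2a at 118 in the ID2 library and 45.8 in the control library (1.34) and Tfap2c at 2150 in ID2 cells against 3697 in control cells (−0.78). Splicing factors that act on ESRP-regulated exons had a median near 0 (−0.03 over 6 genes). Hnrnpm stood at 7191 in ID2 cells against 4808 in control cells (0.58). Mbnl2 stood at 4576 in ID2 cells against 3917 in control cells (0.22) and Mbnl1 at 205 in ID2 cells against 237 in control cells (−0.21). E-cadherin repressors had a median of 0.01, with 3 lower, 3 higher and 1 equal in steps, and a median of 0.39 at a floor of 250 and 0.13 with no floor. Zeb1 stood at 866 in the ID2 library and at 499 in the control library (0.80), whereas Snai3 stood at 63.3 in ID2 cells against 145 in control cells (−1.19) and Twist1 at 52.3 in ID2 cells against 81.6 in control cells (−0.63). Of the simple epithelial keratins, Krt19 stood at 92.4 in the ID2 library and at 196 in the control library (−1.08), Krt18 at 260 in ID2 cells against 346 in control cells (−0.41) and Krt8 at 754 in ID2 cells against 613 in control cells (0.30). Krt7, which was under the floor and is named after its values were seen, stood at 6.03 in the ID2 library and at 73.6 in the control library.

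The nearest protein-coding gene on each side of each of the 9 was looked up in RefSeq. Of 18 neighbours 17 were above the floor, and 9 were lower and 8 higher (median log2 ratio −0.03). Cdh1 lies beside Cdh3 and Ocln beside Marveld2, and in both pairs the values of both genes were lower. Lower neighbours were not particular to these pairs. Among the others were Tnfrsf12a beside Cldn6 (log2 ratio −0.72), Slc2a4 beside Cldn7 (−0.59) and Tarsl2 beside Tjp1 (−0.66). On the other side of Cdh1 lies Tango6 (log2 ratio 0.02), and on that of Ocln Gtf2h2 (−0.25). Jam2 lies between Mrpl39 (2836 in the ID2 library and 2745 in the control library, 0.05) and Atp5j (3298 in the ID2 library and 2460 in the control library, 0.42), both with smaller ratios than Jam2. Esrp1 lies between Dpy19l4 (−0.14) and the gene listed as 1110037F02Rik (0.58), neither as low as Esrp1.

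Markers of other cell types that carry epithelial or mesenchymal genes also differed between the libraries. Of 8 trophectoderm markers 5 were listed, with summed values of 2485 in the ID2 library and 4159 in the control library, most of it Tfap2c, and Cdx2, Elf5 and Gata3 were not listed. Above the floor 2 of these were lower and 1, Eomes, was higher (219 in the ID2 library and 163 in the control library). Of 12 fibroblast and feeder markers 7 were listed, with sums of 1698 in the ID2 library and 2418 in the control library, and Col3a1, Col6a3, Lum, Dcn and Postn were not listed. Of the 5 fibroblast and feeder markers above the floor, 3 were lower and 2 higher in whole steps (median log2 ratio −0.38). Primitive endoderm markers summed to 476 in the ID2 library and 385 in the control library (6 of 8 listed), neural progenitor markers to 1108 in the ID2 library and 964 in the control library (3 of 7), and mesoderm markers to 450 in the ID2 library and 821 in the control library (3 of 7). In the primitive endoderm list the highest ratio was that of Sox7 (127 in the ID2 library and 16.9 in the control library). Gata4 was lower there (76.4 in the ID2 library and 146 in the control library). Of the 5 genes of that list above the floor 4 were higher (median log2 ratio 0.21). In the neural list Sox1 alone was higher (782 in the ID2 library and 386 in the control library), Nes and Neurod1 were lower, and the median log2 ratio was −0.68. In the mesoderm list Gata2 alone was lower (122 in the ID2 library and 572 in the control library), Eomes and Tbx6 were higher, and the median was 0.35. The part of such cells in the differences above was not tested.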

How the data were processed

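RNA had been sequenced from 1 library of 46C cells overexpressing ID2 and 1 library of vector control cells, after Trizol extraction and a TruSeq RNA v2 kit, per the labels' protocols. STAR, DESeq and build mm9 are named in the submitters' processing notes, without versions, counting tool or annotation. The authors deposited a normalized signal value per gene and library, their fold (the ratio of ID2 to control), its log2, a p-value and its adjusted form. These signal values were not read counts as deposited: each was a whole multiple of a step (1.00 in the ID2 library, 0.995 in the control library, within 0.01 of a step), and the sorted whole numbers of both libraries were identical. Both had thus been set to a common distribution in whole steps, depth cannot be recovered, and equal totals of steps were imposed. The deposited totals, 25346670 in the ID2 library and 25101954 in the control library, differ with the size of the step.

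A log2 ratio was computed with a pseudocount of 1, for genes with a mean of at least 50 (12679 of 14398). No test was run, because each group has 1 library. Named genes were the 9 genes, Id2 and up to 3 members of each junction list with the largest absolute log2 ratio; exceptions are identified, and 1 gene that this rule names is not reported here. Members and lists were chosen with earlier results of these data known. The ratio script was tested on simulated data. Python 3.11.15, pandas 2.3.3 and Matplotlib 3.10.9 were used. Alternatives were pseudocounts of 0.1 and 10, no floor, a floor of 250, folds of 1.5 and 4, scaling to a median ratio of 1, the authors' log2 column and, added after seeing the data, whole steps.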

Additional observations from a re-analysis of the deposited data

How the results depend on the processing

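Log2 ratios of the 9 genes moved by no more than 0.1 under other pseudocounts, scaling, whole steps and the authors' log2 column (45 recomputed values): Jam2 lay between 1.24 and 1.26, Cdh1 between −0.66 and −0.64, Cldn7 between −1.03 and −0.99, and Esrp1 between −1.21 and −1.10. These settings could hardly move them, so this is no measure of stability between cultures. The median of the 9 lay between −0.66 and −0.60, also without Jam2 or Esrp1. With a pseudocount of 10 only 1 of the 9, Esrp1, was at least 2-fold lower, and with a floor of 250 only Cldn7. At 1.5-fold, 6 of the 9 and 835 of all genes were lower and 1014 of all genes higher; at 4-fold, 0 of the 9 were lower or higher, with 18 genes lower and 23 higher in all. Counts over all genes past 2-fold were 470 lower and 551 higher when no floor was set, against 53 and 105 at a floor of 250. Of 48 recomputed medians of junction lists, 11 moved by over 0.1, in lists of 2 to 9 members; with a floor of 250, other classical cadherins went to −0.79, E-cadherin repressors to 0.39, simple epithelial keratins to −0.06 and other tight junction membrane proteins to −0.01. With no floor, cadherins were at 0.01, repressors at 0.13, keratins at −0.74 and those membrane proteins at −0.01. No paired analysis was possible because each group has 1 library.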
